A study of Homo sapiens with 6 samples.

Results

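The MEF2 transcription factors and the class IIa histone deacetylases (HDACs) were followed in MV4;11 cells, an established human leukemia line in which the gene MLL (KMT2A) is rearranged. The members were all probe sets whose platform gene symbol was MEF2A, MEF2C, MEF2D, HDAC4, HDAC5, HDAC7 or HDAC9, which gave 34 of the 49293 tested probe sets and 7 of the 18239 genes. One group of 3 arrays came from cells given 4 µM MI-389, a small molecule that blocks binding of menin to MLL, per the series text, and the other group of 3 from cells given the solvent DMSO alone. Both groups held 0.25% DMSO for 6 days, with fresh medium and fresh compound or DMSO on day 3. All samples were of the same cell line, labelled as biological replicates without a word on how the cultures were separated, so each p-value reflects only how far these 6 samples spread, and that spread can be technical in part. Levels are log2 values as deposited, and a change is the MI-389 mean minus the DMSO mean on that scale.

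MEF2 proteins are transcription factors with a MADS domain that bind an A/T-rich DNA site as dimers. They act in muscle, neurons, endothelium and blood, and MEF2C is known as a factor of myeloid and lymphoid progenitors that is kept high by MLL fusion proteins. Class IIa HDACs have little deacetylase activity of their own. They bind MEF2 through their amino-terminal part and bring corepressors with HDAC3 to its target genes. Kinases of the CaMK, PKD, SIK and MARK groups phosphorylate them, after which 14-3-3 proteins hold them in the cytoplasm and MEF2 is free to activate. HDAC9 is itself a known MEF2 target gene, as are JUN and KLF2.

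The DNA site that MEF2 binds can be searched for in promoters, and only some of these genes held a match. The promoter windows below are from RefSeq (GRCh38.p14), cover 250 bases before and 50 bases after an annotated gene start, run 5′ to 3′ on the strand of the gene, and show the match to the MEF2 consensus site in capitals. Those of HDAC9, MEF2A, KLF2 and JUN are shown, which carry such a match, passed the test of expression described below, and did not all move in the same direction. MEF2C also passed and has a match in 1 of its 7 windows, which is not printed. The windows were chosen after the values were seen. Of the 9 listed MEF2 target genes of signalled cells with a window, 3 held the consensus, KLF2, JUN and BDNF, the last in 1 of its 5 windows.
HDAC9 promoter, chr7:18086575-18086874, plus strand: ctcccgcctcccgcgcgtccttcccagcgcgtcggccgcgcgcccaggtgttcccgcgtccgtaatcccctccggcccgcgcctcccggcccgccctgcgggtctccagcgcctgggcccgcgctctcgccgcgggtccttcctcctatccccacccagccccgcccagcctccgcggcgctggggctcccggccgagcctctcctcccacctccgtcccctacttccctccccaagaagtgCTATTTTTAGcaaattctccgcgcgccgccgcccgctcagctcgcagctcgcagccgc
MEF2A promoter, chr15:99565734-99566033, plus strand: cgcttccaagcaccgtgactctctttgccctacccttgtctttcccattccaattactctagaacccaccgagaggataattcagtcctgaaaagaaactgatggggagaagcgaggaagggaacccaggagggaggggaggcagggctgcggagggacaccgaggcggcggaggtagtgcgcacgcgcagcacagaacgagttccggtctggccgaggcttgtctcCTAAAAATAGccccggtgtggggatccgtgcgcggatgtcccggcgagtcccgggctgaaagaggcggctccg
KLF2 promoter, chr19:16324576-16324875, plus strand: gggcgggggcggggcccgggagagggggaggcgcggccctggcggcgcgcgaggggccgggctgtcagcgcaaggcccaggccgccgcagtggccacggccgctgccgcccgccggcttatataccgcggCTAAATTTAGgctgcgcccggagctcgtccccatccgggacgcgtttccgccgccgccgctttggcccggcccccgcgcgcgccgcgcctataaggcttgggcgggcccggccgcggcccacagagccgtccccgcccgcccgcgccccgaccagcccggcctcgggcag
JUN promoter, chr1:58783998-58784297, minus strand: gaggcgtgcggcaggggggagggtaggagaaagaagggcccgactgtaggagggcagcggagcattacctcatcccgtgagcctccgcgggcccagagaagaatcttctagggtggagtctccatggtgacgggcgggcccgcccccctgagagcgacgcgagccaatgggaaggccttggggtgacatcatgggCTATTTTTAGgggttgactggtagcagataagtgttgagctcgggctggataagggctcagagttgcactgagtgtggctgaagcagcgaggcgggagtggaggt

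The MEF2 consensus site, a palindromic pattern of 10 bases that reads the same on both strands, was searched by that name. The form of it found in HDAC9, CTATTTTTAG, and its reverse complement CTAAAAATAG were also searched alone, on both strands, and are contained in the consensus. HDAC9 held this exact form at -8 to 2 from the gene start (the first transcribed base is 1 and there is no base 0), MEF2A held its reverse complement at -23 to -14, and JUN held it at -55 to -46. KLF2 held another form of the consensus, CTAAATTTAG, at -120 to -111. Of all 35116 promoter windows in the table, 50 held the exact form (0.142%) and 1050 the consensus (2.99%). The 7 genes had 22 windows, from 6 of the genes, and 3 of these held the consensus. The third, besides HDAC9 and MEF2A, was 1 of the 7 windows of MEF2C, with TTATTTTTAA at -175 to -166. The 5 windows of HDAC4 and the 1 window each of HDAC7 and MEF2D held none. HDAC9 also had 4 windows without a match and MEF2A 2. The arrays do not show which of these starts the cells used, and a match in letters is not evidence of binding.

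All 3 MEF2 genes studied here fell with MI-389, and among the class IIa HDAC genes HDAC9 fell and HDAC4 rose. A further MEF2 gene, MEF2B, has 4 probe sets that are annotated with BORCS8-MEF2B as well, and it was not analysed. In the limma fit over all genes, 5 of the 7 members passed an adjusted p of 0.05, 4 lower and 1 higher, where 34.1% of all genes passed, 15.7% lower and 18.4% higher. The groups did not overlap for those 5 genes, and for 45.3% of all genes. Of all genes 9311 lay under the background level described below in both groups, against 0 of the 7 members. The shares over all genes thus include many dim genes and are no like background for the members. Each gene is represented by its brightest probe set that is annotated to no other gene.

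**Figure D1:**
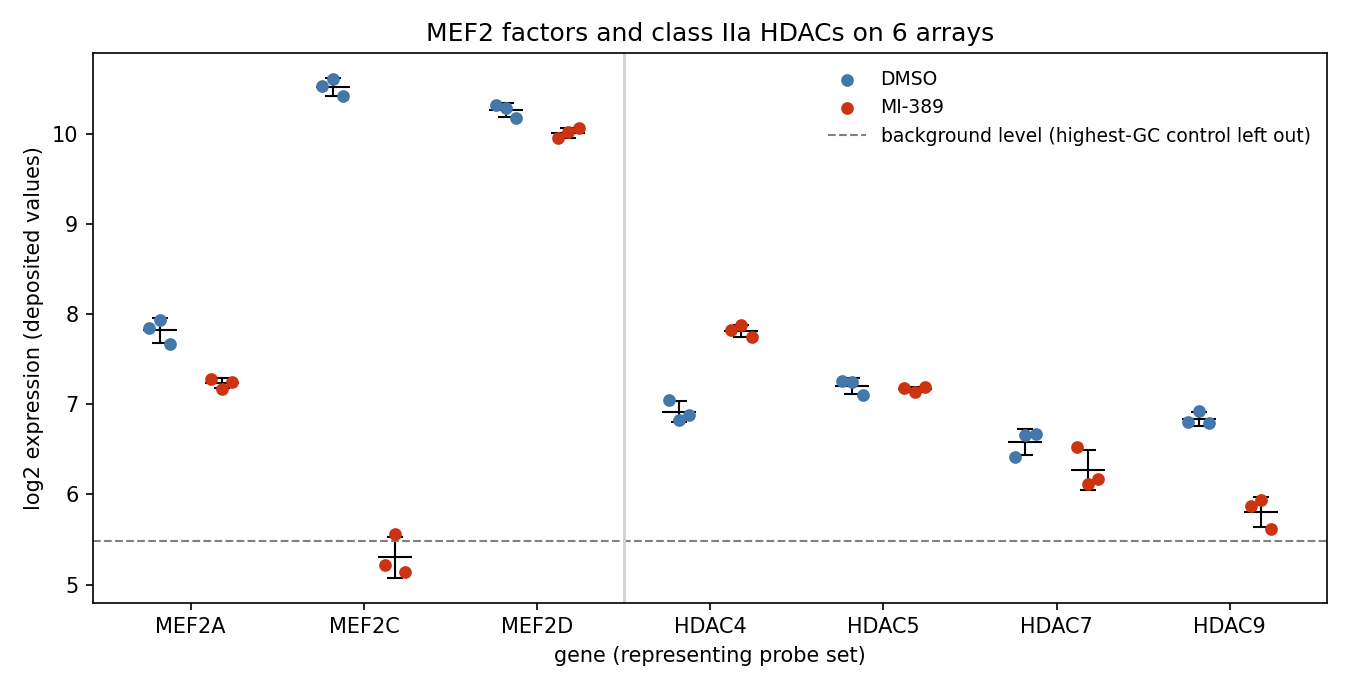
Log2 expression of the representing probe set of each gene (y axis) in the 3 DMSO arrays (blue) and the 3 MI-389 arrays (red), with the mean and SD in black. The dashed line is the background level of 5.49, the highest value among nonspecific controls with the one of highest GC content left out, and of the 7 genes only MEF2C has its MI-389 mean below that line, at 5.31.

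MEF2C stood at 10.53, 10.61 and 10.42 on the DMSO arrays and at 5.21, 5.57 and 5.14 on the MI-389 arrays. All MI-389 arrays were far below all DMSO arrays. MEF2C was thus lower on the log2 scale, with a change of -5.21 (SE 0.10, 95% interval -5.45 to -4.98, limma adjusted p = 5.386e-10, n = 3 each). Since the table has no detection calls, the background was taken from 22 control probe sets of nonspecific sequence, whose highest value on any array was 5.49. A further nonspecific control, that of highest GC content, reached 7.87 and was left out, a choice made with earlier results of these data known. Against 5.49, with any array above it kept at its own value, MEF2C was at least 32.1-fold lower with MI-389. Against 7.87, an alternative added after the data were seen, the bound was 6.29-fold, and the other genes but MEF2D, 5 of the 7, lay under that level in both groups. RMA values, which the submitters' notes name, are compressed near the floor, so the size of the fall below it is not known.

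The other probe sets of MEF2C moved the same way. The probe set 11723215_s_at went from 10.25, 10.38 and 10.33 to 5.41, 5.39 and 5.01, at least 28.5-fold lower. The probe set 11723214_a_at went from 9.01, 8.97 and 8.88 to 4.15, 4.11 and 3.72, at least 11.1-fold lower. All 3 were under the background level with MI-389, so their changes are bounds and were not compared with each other. The MEF2C probe set 11756531_a_at was under the background level in both groups, at 4.59, 4.70 and 4.27 against 3.58, 3.76 and 3.95, and was still called lower (-0.76, SE 0.12). So 4 of 4 MEF2C probe sets fell, where 28% of all probe sets changed and 14% were lower.

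MEF2A, a broadly expressed paralog, had levels of 7.84, 7.94 and 7.67 with DMSO and 7.28, 7.17 and 7.25 with MI-389. The groups did not overlap, and the change was -0.58 (SE 0.07, limma adjusted p = 1.46e-04). Of its 4 probe sets 3 fell, among them 11724863_a_at from 6.93, 7.02 and 6.95 to 6.52, 6.67 and 6.81, a call that was lost without DMSO replicate 2 (-0.27). The probe set 11735491_a_at, under the background level in both groups, changed by -0.15 (95% interval -0.35 to 0.05) and was not called. That probe set differed in its response from the brightest one (by 0.44, adjusted p = 0.02036), whereas the other two did not pass that test. With the mean of all its probe sets the change of MEF2A was -0.37 (adjusted p = 0.001722).

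MEF2D, a further broadly expressed paralog, fell least of the 3 at its brightest probe set. Its levels were 10.32, 10.29 and 10.17 with DMSO and 9.95, 10.02 and 10.06 with MI-389. The 2 groups lay close together without overlapping, and the change was -0.25 (SE 0.06, 95% interval -0.39 to -0.11, limma adjusted p = 0.009345), or 1.19-fold lower. The gene MEF2D had 6 of 6 probe sets called lower, with changes between -0.43 and -0.25, and 0 of its 5 probe set pairs differed in response (5 of 5 had adjusted p-values of 0.1537 or more). In the fit over probe sets the brightest one of MEF2D was not called without DMSO replicate 1 (-0.22, adjusted p = 0.05855) or DMSO replicate 2 (-0.24, adjusted p = 0.0576).

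The 3 MEF2 genes were set against each other array by array. With MEF2C set to the background level of 5.49 where it lay under it, its fall exceeded that of MEF2D by at least 4.75 and that of MEF2A by at least 4.42 on the log2 scale. Both bounds hold for that level only. Against 7.87, where the bound of MEF2C itself was 6.29-fold, they would be smaller. The change of MEF2A minus that of MEF2D was -0.33 (SE 0.07). An exact two-sided permutation test of 3 arrays against 3 cannot go below p = 0.1, and 8 of the 9 pairs within the MEF2 and HDAC families reached that value, with an adjusted p of 0.1125 over the 9. The remaining pair was HDAC5 and HDAC7 (0.27, exact p = 0.2). When the probe sets of each gene were averaged, the difference between MEF2A and MEF2D was -0.04.

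HDAC9 had levels of 6.80, 6.93 and 6.79 with DMSO and 5.87, 5.94 and 5.62 with MI-389, both groups above the background level. The groups did not overlap, and the change was -1.03 (SE 0.08, limma adjusted p = 6.799e-06), or 2.04-fold lower. This rests on the probe set 11728076_at alone. The other 4 probe sets of HDAC9 had levels between 3.31 and 3.85 on single arrays, under the background level on every array, and changes between -0.01 and 0.06, none of them called. The mean of all 5 probe sets of HDAC9 gave a change of -0.18 (adjusted p = 0.02005). HDAC9 is known for truncated transcripts without the catalytic part, and which transcripts these probe sets read was not tested.

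HDAC4 went the other way. Its brightest probe set, 11743453_s_at, stood at 7.05, 6.82 and 6.88 with DMSO and at 7.82, 7.88 and 7.74 with MI-389, with no overlap. The change was 0.90 (SE 0.07, 95% interval 0.74 to 1.06, limma adjusted p = 5.454e-06), or 1.86-fold higher. The suffixes _s_at, _x_at and _a_at, called unspecific here, mark probes shared with other transcripts, of the same gene in the case of _a_at, and the platform annotation gives 11743453_s_at to HDAC4 alone. The HDAC4 probe set 11761998_a_at, also above the background level, had 5.75, 5.97 and 5.97 with DMSO and 5.75, 6.03 and 6.01 with MI-389, so that its groups overlapped. Its change was 0.03 (95% interval -0.17 to 0.24, adjusted p = 0.8466), and it differed from the brightest probe set by -0.86 (SE 0.13, adjusted p = 7.634e-04). The other 4 probe sets of HDAC4 lay under the background level in both groups and were not called. Over all 6 probe sets the mean change of HDAC4 was 0.19 (adjusted p = 0.005476).

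HDAC5 and HDAC7 did not pass the test at their brightest probe sets. HDAC5 had levels of 7.26, 7.25 and 7.10 with DMSO and 7.18, 7.13 and 7.19 with MI-389, which overlapped. Its log2 change of -0.04 had an interval from -0.17 to 0.10 (limma adjusted p = 0.6974). A dim probe set of HDAC5, 11760617_a_at, was called higher (0.27, SE 0.07) with both groups under the background level, but not without DMSO replicate 3 (0.22) or with the spike-in centring (0.013). HDAC7 had levels of 6.42, 6.66 and 6.67 with DMSO and 6.53, 6.12 and 6.17 with MI-389, where MI-389 replicate 1 lay within the DMSO range. Its change was -0.31 (95% interval -0.56 to -0.06, adjusted p = 0.05722), close to the threshold. It passed with other settings of the fit, among them without MI-389 replicate 1 (-0.44, adjusted p = 0.004217) and without DMSO replicate 1 (-0.39, adjusted p = 0.03225). With the mean of all 6 probe sets of HDAC7 the change was 0.02 (adjusted p = 0.8599), and 0 of the 6 were called.

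The class IIa genes thus spread in both directions. The change of HDAC4 minus that of HDAC9 was 1.92 (SE 0.12), with every MI-389 array above every DMSO array in that difference, and exact p = 0.1, the lowest possible value. It was 0.37 when the probe sets of each gene were averaged. The change of HDAC4 minus that of HDAC5 was 0.93 (SE 0.09) and that of HDAC5 minus that of HDAC9 was 0.99 (SE 0.12).

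Among the 34 probe sets as a whole, 16 were called, 14 lower and 2 higher, and the groups did not overlap in 18 of them (40.4% of all probe sets). All 14 MEF2 probe sets had a change below 0 and 13 of them were called, and 3 of 20 probe sets of the HDAC genes were, beside 28% called and 14% lower over all probe sets. Brightness differed between the families, since 3 of the 14 MEF2 and 14 of the 20 HDAC probe sets lay under the background level in both groups. Of those above it in at least 1 group, 11 of 11 MEF2 and 2 of 6 HDAC probe sets were called. A probe set could enter these counts by 1 group alone, so its change can itself bring it in. The MEF2C probe sets counted here and the dimmest of MEF2D (5.79 with DMSO, 5.36 with MI-389) entered by DMSO alone. An HDAC7 probe set entered by MI-389 alone (5.43 with DMSO, 5.55 with MI-389) and was not called. The 28% covers bright and dim probe sets alike and is no background for these counts. The 2 higher probe sets were those of HDAC4 and HDAC5 named above, and their number was 1 without DMSO replicate 3 and 4 without MI-389 replicate 3. In 14 of the 27 pairs formed by a member's brightest probe set and each of its others, the response differed (21.3% of such pairs over all genes). The change of the other probe set lay above that of the brightest in 9 (8.74% of all) and below it in 5 (12.6% of all). This compares changes and not levels, so a probe set in those 9 can itself have fallen or stayed flat. The groups did not overlap in 16 of the 27 pairs (36.1% of all). In 12 of the 14 the other probe set was under the background level in both groups, where values are compressed. Some of these dim probe sets still moved, such as 11756531_a_at of MEF2C (-0.76) and 11760617_a_at of HDAC5 (0.27). These pairs cannot tell compression at the floor from transcripts that respond differently, and neither was tested. Of the 6 pairs with both probe sets above the background level in both groups, 1 differed, that of HDAC4 with 11761998_a_at.

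**Figure D2:**
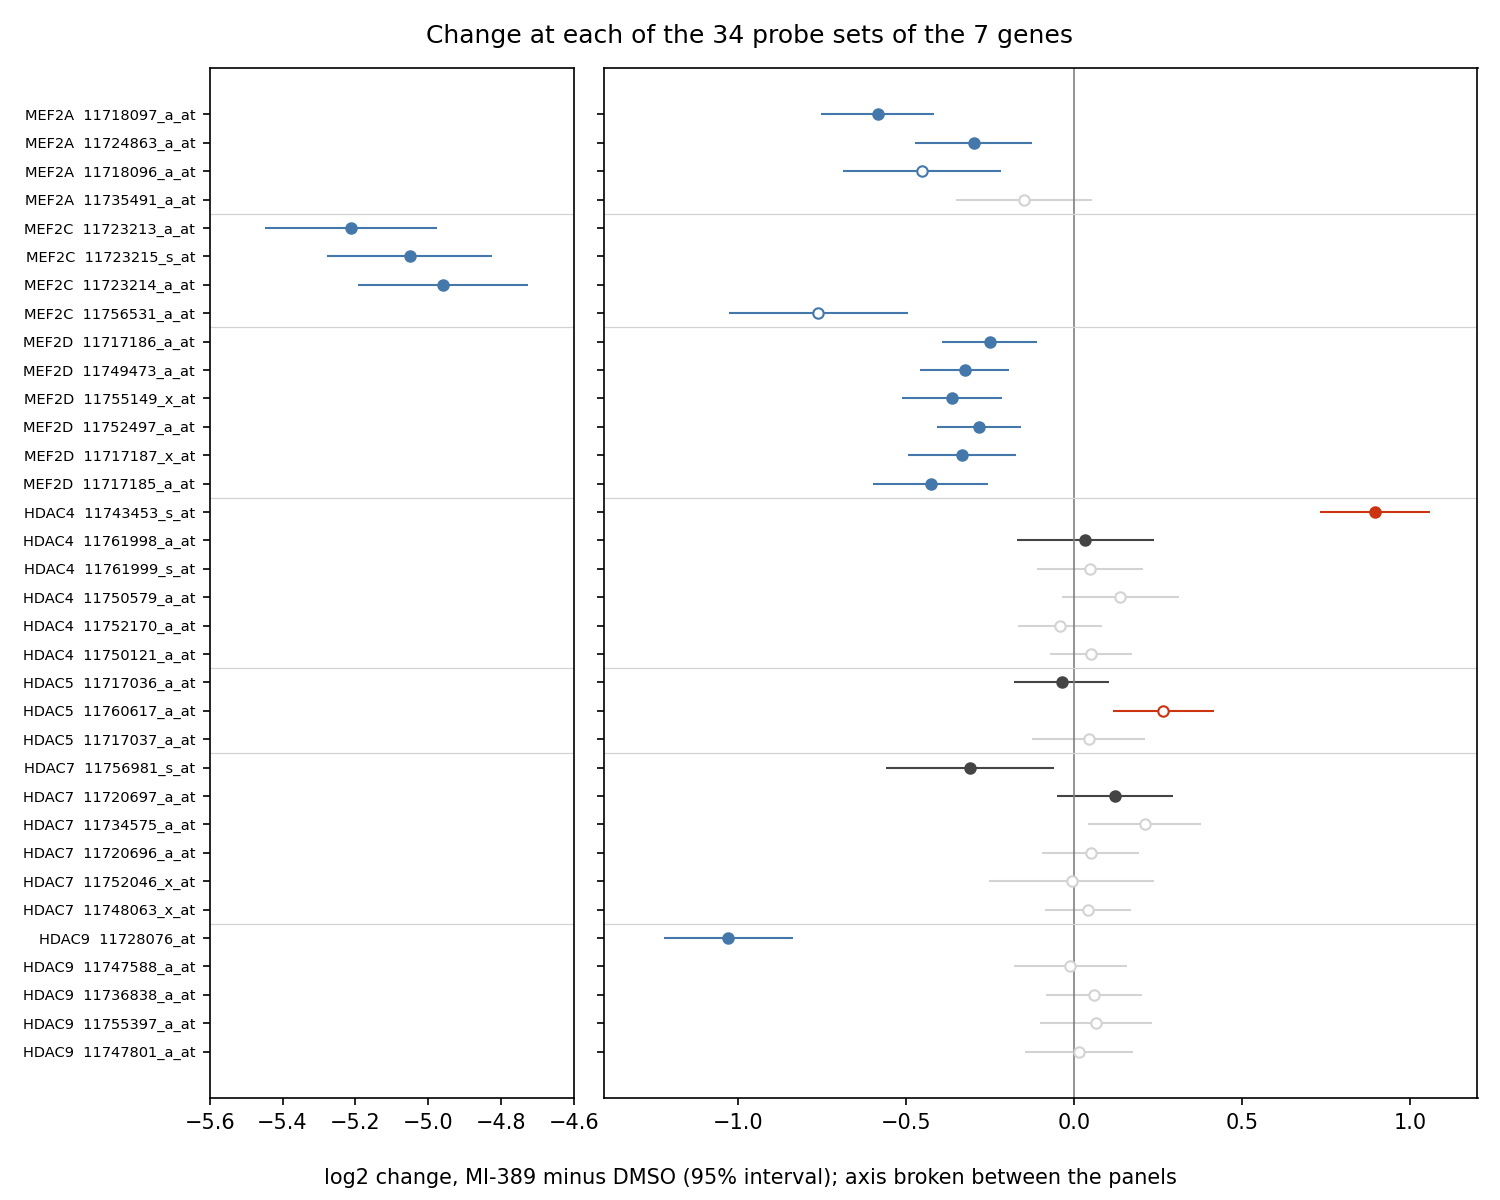
Log2 change with its 95% interval (x axis, broken between the panels) for each of the 34 probe sets (y axis), ordered by gene and by DMSO level from bright to dim. Blue marks a fall and red a rise at an adjusted p under 0.05, grey and black were not called, and open points lay under the background level in both groups. The 14 MEF2 probe sets lie to the left of 0, and HDAC4 and HDAC9 each have 1 probe set far from the rest.

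The state of the arrays moved with the treatment in some controls, whose part in these results was not tested. Array medians ranged from 4.47 to 4.49. The hybridisation spike-ins were 0.25 higher on the MI-389 arrays. An alternative that centres each array on them lowers every gene by that amount, which moves the median change of all genes from 0.02 to -0.23. The 18S and 28S rRNA controls were 0.70 and 1.06 higher with MI-389. The 3-prime minus 5-prime difference of GAPDH was -0.11 ± 0.02 with DMSO and 0.04 ± 0.02 with MI-389 (SD, n = 3), and that of ACTB 1.30 ± 0.08 and 1.64 ± 0.23. Under that centring MEF2C, MEF2A, MEF2D and HDAC9 fell and HDAC4 rose by 0.64. HDAC5 and HDAC7 were then called lower (-0.29 and -0.56), close to the shift of all genes in the case of HDAC5.

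Of 11 measured myeloid markers 10 were above the background level in at least 1 group, among them LYZ, FLT3, PTPRC and CD68. The exception was SPI1, which encodes the myeloid factor PU.1 and has a single probe set, at 4.66 ± 0.44 with DMSO and 3.99 ± 0.04 with MI-389. With MI-389 7 of the 11 rose and 2 fell, and their summed linear signal was 6083 to 6301 with DMSO and 12196 to 12461 with MI-389. That sum is weighted to its brightest genes. Without LYZ the other 10 summed to 3925 to 4171 with DMSO and 3185 to 3484 with MI-389. FLT3, the brightest of those 10 with DMSO (11.01, against 9.59 with MI-389), fell, as did SPI1. CD68, ITGAX, CD86, CSF1R, CSF2RA and PTPRC were called higher, so the lower sum does not describe those markers. Lysozyme (LYZ) rose by 2.06 and FLT3 fell by 1.41. Of 14 measured markers of T, B, erythroid, megakaryocyte, endothelial, fibroblast, epithelial and muscle cells, 12 were under the background level in both groups. PECAM1, which myeloid cells also express, was above it in both groups, and the keratin gene KRT18 with DMSO only. Of the 14, 2 were higher and 4 lower (2 lower without DMSO replicate 2), and their summed linear signal was 1035 to 1074 with DMSO and 1210 to 1312 with MI-389. Without PECAM1 the other 13 summed to 296 to 309 with DMSO and 250 to 260 with MI-389. In bulk RNA fewer cells of a type and less RNA per cell cannot be told apart, so levels of MEF2C refer to the whole culture. The part of this marker shift in the changes of the MEF2 and HDAC genes was not tested.

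The kinases that act on class IIa HDACs moved in both directions. Of 17 measured, 6 rose and 3 fell, with a median change of 0.06 beside 0.02 over all genes. For this list, the marker lists above and the lists below, 18.4% of all genes were higher and 15.7% lower. Several of the lists lie near those shares, and the lists were not tested as sets. PRKD3, a protein kinase D, had 7.27, 7.31 and 7.30 with DMSO and 8.16, 8.46 and 8.35 with MI-389, and rose by 1.03 (SE 0.08, limma adjusted p = 2.965e-06). Its groups lay well apart, with 5 of 6 probe sets higher, and its mean over probe sets changed by 0.62. CAMK1D rose by 0.71. The salt-inducible kinase SIK2 rose by 0.46, and by 0.12 with unspecific suffixes set last, where it was not called. SIK3, known as a kinase that keeps HDAC4 off MEF2C in leukemia cells, was called higher by 0.27 in 1 of its 2 probe sets (SE 0.06), but with the mean of both it changed by 0.06 and was not called, and with the spike-in centring by 0.01. CAMK2D (-0.38), MARK3 (-0.32) and PRKD2 (-0.30) fell. For CAMK2D 1 of 4 probe sets was called, and the mean of the 4 changed by -0.12, not called, while MARK3 had 4 of 4 and PRKD2 3 of 3 called lower. Under the spike-in scaling, 3 of these kinases were higher and 7 lower.

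Of the 7 14-3-3 genes, which encode the proteins that hold phosphorylated class IIa HDACs in the cytoplasm, 1 was called higher and 2 lower. YWHAE changed most, from 7.11, 7.13 and 7.13 to 6.08, 6.32 and 6.28, a fall of 0.90 that was called in 3 of its 4 probe sets while with unspecific suffixes set last YWHAE was at 0.0022. The single rise, YWHAQ (0.18), was called with all 6 arrays, lost without any one array except MI-389 replicate 1 (0.16 to 0.18 where lost), and turned to -0.076 with the spike-in centring. YWHAG (-0.21) was not called without DMSO replicate 1 (-0.19), MI-389 replicate 1 (-0.20) or MI-389 replicate 2 (-0.18), and its mean over 3 probe sets was -0.014, not called.

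The p38 and ERK5 kinases that phosphorylate MEF2, listed together with the kinases upstream of them, counted 3 higher and 2 lower of 7 measured (median 0.09). MAP3K3, which acts upstream of ERK5, rose by 0.74 (SE 0.05), and by 0.38 in the mean of its probe sets. MAP2K3, an activator of p38, rose by 0.48 and MAP2K6, with both groups under the background level, by 0.54. The 2 that fell, MAP2K5 (-0.37), upstream of ERK5, and MAPK12 (-0.26), a p38 kinase and the one MEF2 kinase among the 5 called, were both not called without DMSO replicate 1 (-0.32 and -0.29) or without DMSO replicate 2 (-0.33 and -0.20). MAPK12 was also not called without MI-389 replicate 3 (-0.18), and over the mean of its probe sets (-0.13). MAP2K5 was higher by 0.47 with unspecific suffixes set last and at 0.083 over the mean of its probe sets.

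Calcineurin, the calcium-dependent phosphatase that dephosphorylates MEF2, was lower in part of its subunits. Of 8 genes of calcineurin and its inhibitors, 4 fell and 0 rose (median -0.17), while 2 fell without DMSO replicate 2 and 1 rose without MI-389 replicate 1. PPP3R1, the regulatory subunit, had 9.16, 9.14 and 9.05 with DMSO and 8.48, 8.55 and 8.58 with MI-389, and fell by 0.58 (SE 0.06, limma adjusted p = 2.962e-05). The catalytic subunit gene PPP3CB fell by 0.38, with 4 of 4 probe sets called lower. PPP3CA changed by 0.11 (limma adjusted p = 0.141), with 1 of its 4 probe sets called higher. The others that fell were RCAN1 (-0.25), listed as an inhibitor, and PPP3CC (-0.20). PPP3CC was not called with quantile normalisation or with the replicate block.

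Corepressors that class IIa HDACs bind counted 2 higher and 2 lower of 9 measured (median 0.02), with 1 higher without DMSO replicate 3. BCL6, a repressor that recruits class IIa HDACs, went from 4.74, 4.66 and 4.53 to 6.08, 5.95 and 6.21, at least 1.51-fold higher. Its mean over 5 probe sets changed by 0.61, and 4 of the 5 were called higher. RFXANK, an ankyrin-repeat protein that binds HDAC4 and HDAC5, fell by 0.70, and CTBP2 by 0.39 with 7 of 7 probe sets lower. Of 6 MEF2 coactivators 4 rose and 0 fell (median 0.21), beside 18.4% and 15.7% of all genes, and 2 rose without DMSO replicate 3. KAT2B was at least 1.41-fold higher, in 1 of its 3 probe sets, and CREBBP rose by 0.40 (SE 0.07, limma adjusted p = 0.001209). Centred on the spike-ins CREBBP changed by 0.15, not called, and EP300 (0.24) and CARM1 (0.19) turned to -0.016 and -0.064.

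The other zinc-dependent HDACs, which are of classes I, IIb and IV and do not bind MEF2 in the manner of class IIa, were led by 2 small rises. Their 7 genes had changes from -0.13 to 0.31 with a median of 0.10, against -1.03 to 0.90 in the 4 class IIa genes. Both ranges are of the brightest probe sets, and the ends of the class IIa range rest on 1 probe set each of HDAC9 and HDAC4. With the mean of all probe sets, the class IIa genes ranged only from -0.18 (HDAC9) to 0.19 (HDAC4). HDAC3, the enzyme recruited by class IIa HDACs, had 7.29, 7.31 and 7.27 with DMSO and 7.42, 7.54 and 7.58 with MI-389, and rose by 0.22 (SE 0.06, limma adjusted p = 0.01517). This call was lost without DMSO replicate 3 (0.21) and the sign turned with the spike-in centring (-0.031). HDAC8 rose by 0.31 from a DMSO level under the background, in 2 of its 8 probe sets, and was at -0.089 with unspecific suffixes set last. HDAC1 and HDAC2 changed by 0.10 and 0.16 and were not called, and without MI-389 replicate 2 the number called higher was 3.

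Genes known as MEF2 targets in signalled cells did not move together. Of 11 measured 2 rose and 2 fell, with a median of -0.0022. However, 5 of the 11 were under the background level in both groups, and the median and the counts include them. KLF2, a zinc finger factor whose promoter window is printed above, had 8.08, 8.36 and 7.99 with DMSO and 5.52, 5.27 and 5.31 with MI-389. All its MI-389 arrays were lower, by at least 6.26-fold against the background level, and both its probe sets were called, the one without an unspecific suffix with a change of -0.94. EGR1 fell by 1.85 (mean over 6 probe sets -0.80). KLF4, a related factor of monocyte differentiation, had 5.25, 5.35 and 5.24 with DMSO and 9.18, 9.0 and 9.50 with MI-389, at least 13.3-fold higher. JUN, a subunit of AP-1, had 4.38, 4.44 and 4.38 with DMSO and 6.59, 6.56 and 6.73 with MI-389, at least 2.20-fold higher, with 4 of 4 probe sets called and a mean over them of 0.95. NR4A1, a MEF2 target of T cells, changed by 0.04 (95% interval -0.08 to 0.16) with both groups above the background level, and 1 of its 7 probe sets was called lower. Of 12 MEF2 targets of muscle and metabolism all were under the background level in both groups, and 1 was called, MYH6 (0.27), with 2 called higher without MI-389 replicate 1.

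**Figure D3:**
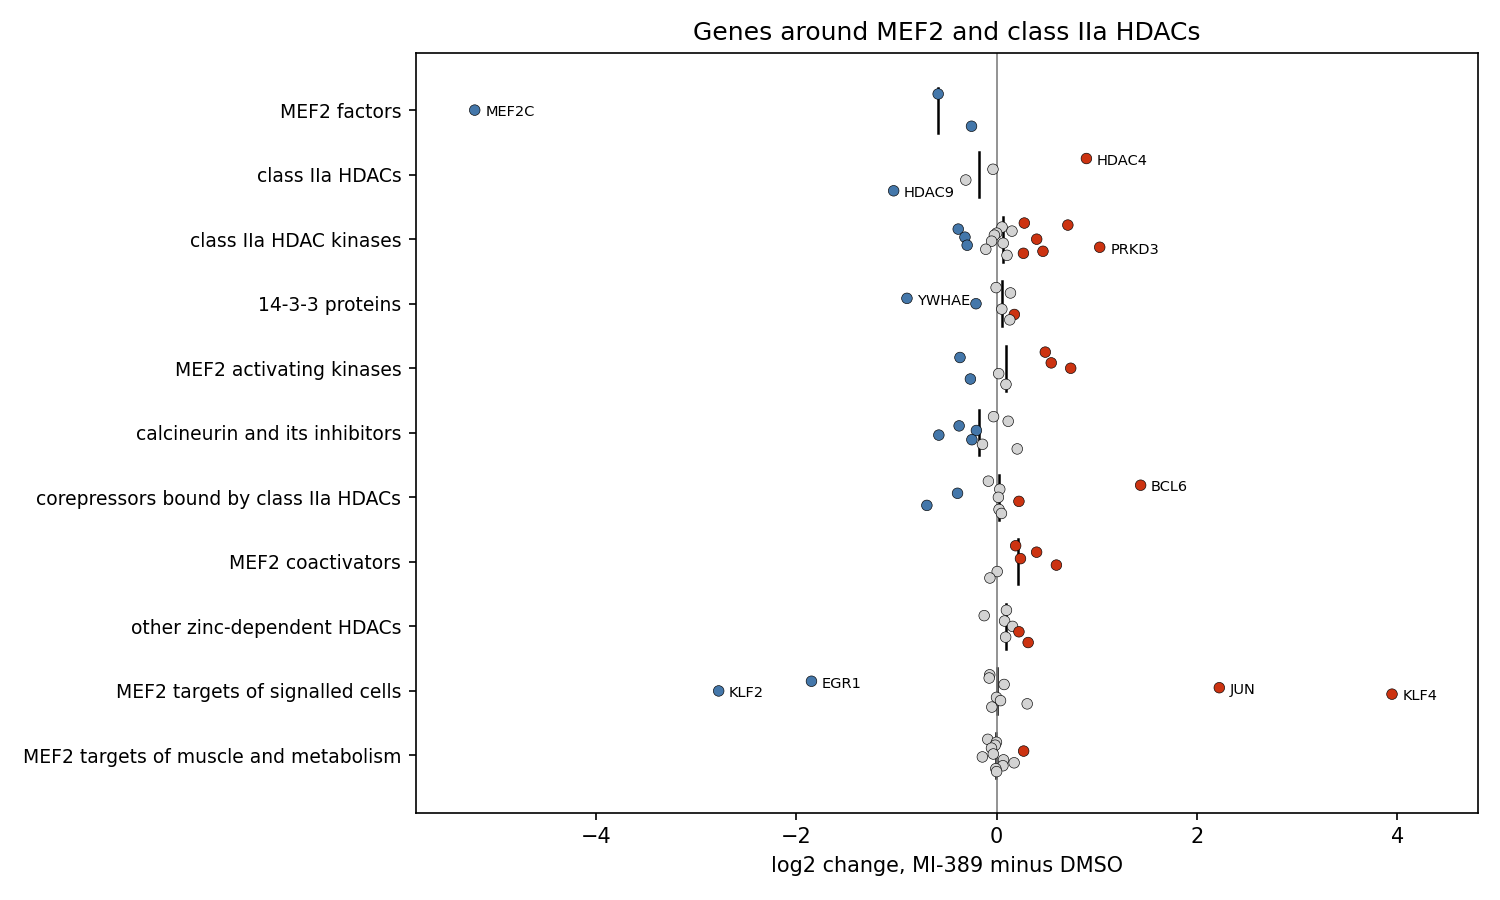
Log2 change of each measured gene (x axis) in the 2 families and in 9 lists of genes around them (y axis), with the median of each list as a black line. Red points rose, blue points fell and grey points were not called at an adjusted p under 0.05. Names are given for changes beyond 0.8 in either direction, from MEF2C at -5.21 to KLF4 at 3.95.

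The promoter match did not single out one direction. Of 25 measured genes with the exact form in a promoter window, 5 were higher (20.0%) and 8 lower (32.0%), with a median change of -0.02. HDAC9, whose promoter gave this form and which is thus counted by construction, and MEF2A are 2 of the 8, and JUN is 1 of the 5. With the members left out, 5 of 23 were higher (21.7%) and 6 lower (26.1%), beside 18.4% and 15.7% of all genes. These shares rest on few genes and were not tested. For the wider consensus, 64 of 424 measured genes rose (15.1%) and 59 fell (13.9%), their median change being 0.01, beside the 18.4% and 15.7% of all genes.

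The profile of MEF2C over the 6 arrays was most like those of DLX2, OCSTAMP and CBS, with root mean square distances of 0.18, 0.28 and 0.29 on the log2 scale after centring each gene on its own mean. Their changes were -5.21, -5.67 and -5.77. All of these genes were under the background level with MI-389, so distances and changes compare values at the floor and are no exact sizes. HDAC9 was most like PTGS1, RAB43 and CDK6, at distances of 0.03, 0.05 and 0.05, with changes of -1.03, -1.06 and -1.02. With 2 groups of 3 arrays such likeness is set mainly by the size of the change and carries no test.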

How the data were processed

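Gene expression was measured on 6 Affymetrix arrays with 3-prime labelling. The deposited values are log2 expression, 1 per probe set and array, which the submitters' processing notes tie to RMA and limma. Neither versions nor settings of these are given in the sources used here. Genes were named by the platform's annotation and brought up to date by Entrez ID in RefSeq (GRCh38.p14), where 45172 of 45253 one-gene probe sets matched. The 93 controls entered no test. MI-389 was compared with DMSO in limma 3.58.1 (R 4.3.3, lmFit and eBayes, two-sided, no covariates) over all 18239 genes, over all 49293 probe sets, and over 27014 array-wise differences between a gene's brightest probe set and its others, each with Benjamini-Hochberg adjustment. On data simulated for this comparison with 18239 genes, 18% of genes changed by 0.25 were recovered, 92% at 0.5 and 100% at 1 and at 2, with 9 false calls among 18039. Only 50 genes were changed at each size there, far fewer than the 6214 genes called in the data. The adjusted threshold thus differs, and these rates need not hold for the data. Array number limits precision, and no depth applies. List genes named are up to 3 per direction with the largest called changes, plus those needed to state a count, and the nearest profiles. SIK3, NR4A1, PPP3CA, PPP3CC, HDAC1, HDAC2 and the marker genes were named after their values were seen. The members and lists were chosen with earlier results of these data known, and the promoter search was added after the values were seen. Of 122 distinct listed symbols, those without a one-gene probe set were not analysed here. Alternatives were 3 rescalings, a filter on dim features, an intensity trend with robust estimation, a replicate block, leaving out each array, and 2 other ways to represent a gene.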

Additional observations from a re-analysis of the deposited data

Results flagged for a closer look

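Among control probe sets that enter no comparison of the genes, 3 sets were higher with MI-389 than with DMSO. The mean of the 18S rRNA controls was higher by 0.70 on the log2 scale and that of the 28S rRNA controls by 1.06. The hybridisation spike-ins were higher by 0.25. Groups of 3 arrays were too small to be searched for single outlying arrays.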

How the results depend on the processing

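MEF2A, MEF2C, MEF2D, HDAC4 and HDAC9 kept their direction and their call under 13 alternative settings, and 1 more, unspecific suffixes last, could not move them since it picks the same probe sets. HDAC7, at -0.31, passed the threshold with a common median (-0.33), with dim features left out (-0.31), and with an intensity trend and robust estimation (-0.31). Centred on the spike-ins, HDAC7 stood at -0.56 and HDAC5 at -0.29, both called, while 12453 genes changed, 1397 higher and 11056 lower, and 27 member probe sets. That centring turned YWHAQ (-0.076), HDAC3 (-0.031), EP300 (-0.016), CARM1 (-0.064) and the HDAC4 probe set 11761998_a_at (-0.22), as it lowers all alike. With the mean of all probe sets HDAC5 was 0.090, HDAC7 0.017 and MAP2K5 0.083. With unspecific suffixes last, YWHAE was 0.0022, MAP2K5 0.47, HDAC8 -0.089 and PTPRC -0.0073. The cause of these shifts was not tested.

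Leaving out each array gave 5216 to 6160 genes changed, 2790 to 3328 higher and 2426 to 2832 lower, 5 to 6 member genes, 14 to 18 member probe sets, MEF2C from -5.34 to -5.13, HDAC7 from -0.44 to -0.23, and 11761998_a_at of HDAC4 from -0.041 to 0.12. Of 50 list genes called, 11 lost the call without at least 1 array. Same-numbered arrays did not deviate together (correlations -0.20, 0.02 and -0.14 across genes), and the labels give the number no meaning. With the replicate number as a block 5725 genes changed and 5 of the 7 members. Signal over background limits the 17 dim member probe sets.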
